A study of Rattus norvegicus with 52 samples.

Results

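The immediate early transcription factor genes of the AP-1 and EGR families were followed through 52 single-cell libraries. They are the 10 genes Fos, Fosb, Fosl1, Fosl2, Jun, Junb, Jund, Egr1, Egr2 and Atf3. The 10 members were named by symbol, with no threshold on their values, and all 10 had a row among the 22081 genes of the count table. The cells were taken from arteries of male Sprague Dawley rats aged 7 weeks in which aneurysms had been induced, and all 52 belonged to 1 group, of which rat 1 gave 5, rat 2 gave 23 and rat 3 gave 24. Every rat had the same surgery, in which the left common carotid artery was joined to the right one, together with ligation of the left renal artery and a chow with extra sodium chloride and 3-aminopropionitrile, which blocks lysyl oxidase. Cells were labelled in the living rat with nanoparticles holding the dye DiI, so a cell was chosen for its uptake of particles, and it was then cut from the lesion by laser. No artery without an aneurysm was analysed here, so the values below describe the lesion cells and compare no treatment. The rat, read from the aneurysm number in the sample titles, is the replicate (n = 3). The smallest 2-sided exact sign-flip p that 3 rats allow is 0.25, so values are given with their spread and no p.

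Immediate early genes are transcribed within minutes of a stimulus, through signalling kinases that act on factors already in place, and need no new protein for it. FOS proteins bind DNA mainly as partners of JUN proteins, while JUN proteins also pair with each other, and these dimers form the AP-1 factor. EGR proteins are zinc finger factors switched on by growth factors, stretch and injury, and ATF3 is a stress-induced relative of the AP-1 proteins that often represses transcription. In macrophages AP-1 acts beside lineage factors at inflammatory and matrix genes.

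Libraries were shallow and uneven, with 1538 to 84848 counts per cell and a median of 15068. The median was lowest in rat 2, at 11390 counts, against 18261 in rat 1 and 21841 in rat 3. Ribosomal protein genes made up a median of 0.948% of the counts of a cell. The label of macrophage was checked on a list of 20 macrophage markers, of which a cell held 19.7% ± 2.93 (SD, n = 3 rats) at 1 or more counts, against 27.6% ± 6.77 of 10 smooth muscle, 25.6% ± 7.32 of 9 endothelial and 24.4% ± 8.34 of 9 fibroblast markers. At 5 or more counts the order differed, at 8.10% ± 4.27 of macrophage, 3.88% ± 3.87 of smooth muscle, 2.92% ± 1.92 of endothelial and 6.21% ± 1.56 of fibroblast markers (SD, n = 3 rats). The summed level of the macrophage list ran from 0 to 28380 counts per library total of 1000000 (CPM) between cells, that of the fibroblast list from 0 to 46300 and that of the smooth muscle list from 0 to 7842. The part of vessel wall transcripts in the values below was not tested.

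Jund and Egr1 were the members found most widely, and the other members were found in at most 16 cells. Jund, the JUN protein with the steadiest basal expression in many tissues, had 1 or more counts in 34 of 52 cells (65.4%, exact Clopper-Pearson 95% interval 50.9 to 78.0). Egr1 was found in 25 cells (48.1%, interval 34.0 to 62.4). Among all genes measured, 2.16% were found in 34 or more cells and 4.53% in 25 or more. Fos and Fosb were found in 16 cells each (30.8%, interval 18.7 to 45.1), a breadth reached by 10.3% of genes. Junb was found in 14 cells (26.9%, interval 15.6 to 41.0), Jun in 12 (23.1%, interval 12.5 to 36.8), Egr2 in 11 (21.2%, interval 11.1 to 34.7), Atf3 in 8 (15.4%, interval 6.88 to 28.1) and Fosl1 in 6 (11.5%, interval 4.35 to 23.4). Fosl2 had 0 counts in all 52 cells. By a floor of 3 counts this allows up to 5.77% of cells to hold a count, while the exact interval reaches 6.85%. It says nothing of cells that express the gene, and 16.0% of genes in the table were also at 0 everywhere. The median over the 10 members was 13 cells, against 4 cells over all genes. These intervals and limits cover counting error only and treat cells as independent. Gene length was not taken into account, so the order of the members is an order of detection and not of transcript number. Wide detection was not particular to genes of the labelled cell type, and detection could be narrow at high counts. The T and NK cell list gene Prf1 was found in 40 cells, against 7 for Cd3e of that list. Vim, with up to 602 counts, was found in 13 cells.

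**Figure D1:**
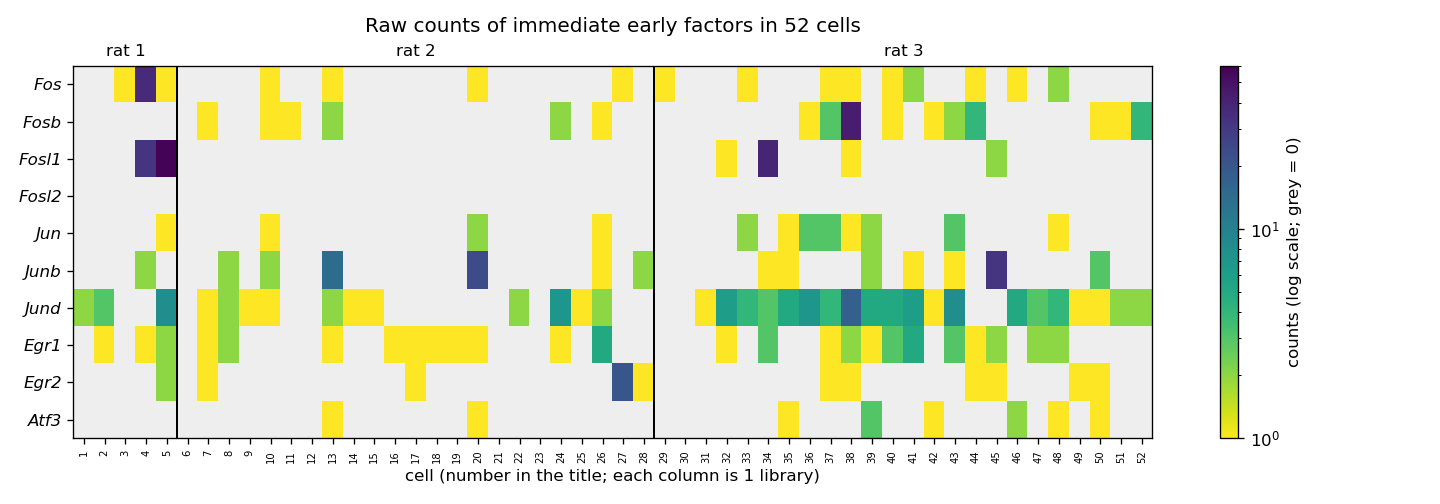
Raw counts of the 10 factors (rows) in each of 52 cells (columns, grouped by rat), on a logarithmic colour scale with 0 in grey. Jund has counts in 34 cells and Egr1 in 25, Fos, Fosb, Fosl1, Junb, Jund and Egr2 each show 1 to 3 squares of 14 to 58 counts, and Fosl2 is grey throughout.

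Many detections were of a lone count, while a few cells held most of the counts. Of 520 values (10 genes in 52 cells), 142 were above 0 and 74 of those were exactly 1 count. The members summed to 575 counts over all cells, and 10 values of 10 or more counts, in 8 cells, made up 315 of them (54.8%). Of the 9 members found in 5 or more cells, 6 had such a value, against 30.0% of the 9494 genes found in 5 or more cells. Those 9494 genes were not matched to the members for breadth. Among the 1000 genes found in 25 or more cells, 29.1% had no such value. In 3 of the 9 members (Fos, Fosb and Egr2) the top cell held at least 50% of the counts, against 16.3% of the 9494 genes. The median share of a gene's counts in its top cell was 36.8% over the 9 members and 25.0% over the 9494 genes.

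The JUN proteins are the main partners of FOS proteins in AP-1, and their genes differed in how the counts were spread over cells. Jund had a median of 2.5 counts where it was found, from 1 to 17, and its top cell held 13.7% of its 124 counts. It was found in 3 of 5 cells of rat 1, 11 of 23 of rat 2 and 20 of 24 of rat 3, or 63.7% ± 18.0 of cells (SD, n = 3 rats). In rat 1 its 5 counts were 2, 3, 0, 0 and 8. In the cells where it was found the level ran from 51.8 to 663 CPM with a median of 142. Summed over the cells of a rat it stood at 109 CPM in rat 1 (exact Poisson 95% interval 58.2 to 187), 78.5 in rat 2 (interval 48.6 to 120) and 142 in rat 3 (interval 115 to 175). The interval of rat 2 overlapped those of both other rats, the one of rat 3 only at its edge. Intervals on summed CPM, here and below, cover counting error only. They treat each read as independent and leave out the spread between cells, so they are too narrow for comparing rats. Without its top cell, which had 8 of its 13 counts, rat 1 stood at 63.6 CPM. Thinning to 10000 counts keeps only the cells that reach that depth, which are 5, 14 and 21 cells of rats 1, 2 and 3. With these cells thinned the share was 55.6%, 40.2% and 67.9% in rats 1, 2 and 3.

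Junb, which can oppose JUN at some target genes, was found in each rat, and most of its counts lay in 3 cells. The share of cells was 20.0% in rat 1, 26.1% in rat 2 and 29.2% in rat 3, or 25.1% ± 4.66 (SD, n = 3 rats). It was 9.53%, 30.6% and 19.7% after thinning to 10000 counts, which also leaves out the shallower cells of rats 2 and 3. Junb reached 14, 23 and 32 counts in 3 cells (rat 2 cell 13, rat 2 cell 20 and rat 3 cell 45), or 652, 1189 and 1402 CPM, and the other 11 cells had 1 to 3 counts each. Having 10 or more counts in at least 3 cells was seen for 7.62% of genes found in 5 or more cells, a set again not matched for breadth. Among the members it was seen for Junb and Fosl1. Summed CPM was 16.8 in rat 1 (interval 2.04 to 60.8), 164 in rat 2 (interval 120 to 221) and 64.9 in rat 3 (interval 46.6 to 88.0). Without the top cell of each rat those of rats 2 and 3 were 84.6 and 14.8 CPM, and rat 1 had 0, so both levels moved much with 1 cell while rat 2 kept the higher value, with the 14 counts of cell 13 still in it.

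Jun itself, the founding AP-1 protein and the target of the JNK kinases, never exceeded 3 counts. It was found in 1 of 5 cells of rat 1, 3 of 23 of rat 2 and 8 of 24 of rat 3, and its 21 counts in all gave 8.41 CPM in rat 1 (interval 0.213 to 46.9), 15.0 in rat 2 (interval 4.07 to 38.3) and 25.3 in rat 3 (interval 14.5 to 41.1). The 3 intervals overlap, and no difference between rats was detectable at this depth.

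Among the FOS genes, whose proteins cannot pair with one another, Fos, Fosb and Fosl1 each had 1 to 3 cells of high counts. Fos was found in 3 of 5 cells of rat 1, 4 of 23 of rat 2 and 9 of 24 of rat 3, or 38.3% ± 21.3 of cells (SD, n = 3 rats). In rat 1 the 5 counts were 0, 0, 1, 37 and 1. The 37 counts of cell 4 were 1023 CPM and 68.5% of all Fos counts in the study, while each of the other 15 cells with Fos had 1 or 2 counts. Summed Fos was 328 CPM in rat 1 (interval 233 to 449), 15.0 in rat 2 (interval 4.07 to 38.3) and 17.4 in rat 3 (interval 8.69 to 31.2), and without its top cell rat 1 stood at 24.2 CPM. Rats 2 and 3 stood at 11.6 and 15.0 CPM without their own top cells. The size of the lead of rat 1 was thus carried by 1 library, while rat 1 stayed highest on lone counts.

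Fosb, whose protein is closest to FOS in sequence, had 0 counts in the 5 cells of rat 1, and was found in 6 of 23 cells of rat 2 and 10 of 24 of rat 3. A count of 0 in rat 1 allows up to 25.2 CPM in its 118848 summed counts by the floor of 3 counts, or 31.0 by the exact interval. In rat 2 summed Fosb was 29.9 CPM (interval 12.9 to 58.9) with at most 2 counts per cell. In rat 3 it was 96.5 CPM (interval 73.8 to 124), of which cell 38 gave 43 counts (700 CPM), and 31.6 CPM without that cell. The other 9 cells of rat 3 with Fosb had 1 to 4 counts.

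Fosl1, which encodes FRA1, a FOS relative that lacks the strong activation domain and is induced more slowly, was found in the fewest cells of any member with counts, yet at high counts in 3 of its 6. The counts were 32 and 58 in cells 4 and 5 of rat 1 and 39 in cell 34 of rat 3 (885, 1442 and 1259 CPM), and 1, 1 and 2 in cells 32, 38 and 45 of rat 3. The other 3 cells of rat 1 had 0. None of the 23 cells of rat 2 had a count, which allows up to 11.2 CPM in 267499 summed counts, or 13.8 by the exact interval. Summed Fosl1 was 757 CPM in rat 1 (interval 609 to 931) and 68.1 in rat 3 (interval 49.3 to 91.7). Without its top cell rat 1 stood at 407 CPM and rat 3 at 6.66. Fosl2, encoding FRA2, stood at 0 in all rats, with counting limits of 25.2, 11.2 and 4.75 CPM in rats 1, 2 and 3. By the exact interval the limits were 31.0, 13.8 and 5.84 CPM. All of these hold only if the authors' annotation let Fosl2 reads be counted, and that was not tested.

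**Figure D2:**
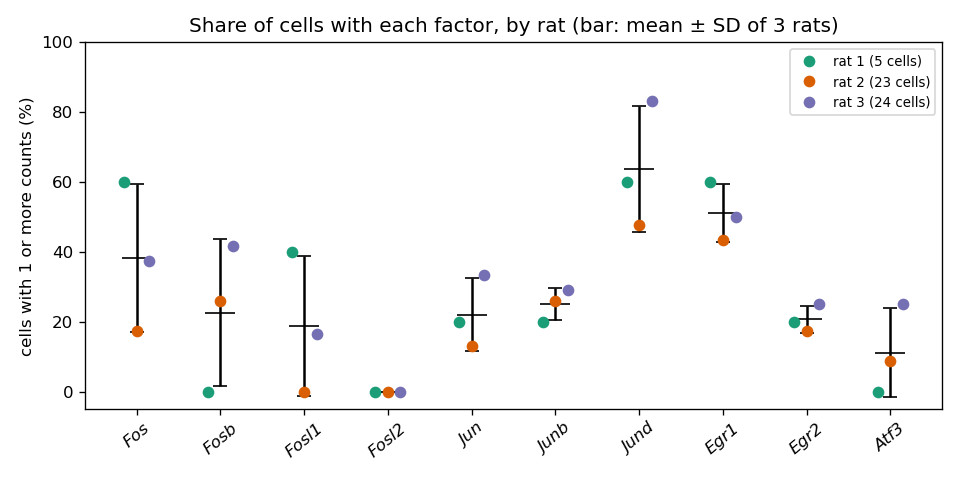
Percent of cells with 1 or more counts of each factor in rat 1 (5 cells), rat 2 (23 cells) and rat 3 (24 cells), as points, with the mean and SD of 3 rats as bars. Jund (48 to 83%) and Egr1 (43 to 60%) lie highest in rats 2 and 3, Fosb and Atf3 are at 0 in rat 1, Fosl1 is at 0 in rat 2 and Fosl2 is at 0 in each rat.

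Egr1, a growth factor and injury response gene, was found at low counts in each rat. It was found in 3 of 5, 10 of 23 and 12 of 24 cells, or 60%, 43.5% and 50% (51.2% ± 8.32, SD, n = 3 rats). The counts never exceeded 5, and 14 of the 25 cells had exactly 1. Among the 1000 genes found in 25 or more cells, 29.1% likewise had no cell with 10 or more counts. In rat 1 the counts were 0, 1, 0, 1 and 2. Summed Egr1 was 33.7 CPM in rat 1 (interval 9.17 to 86.2), 56.1 in rat 2 (interval 31.4 to 92.5) and 41.1 in rat 3 (interval 26.9 to 60.3), so the rats did not differ beyond counting error. Its mean log2(CPM + 1) level was 3.07 ± 0.17 (SD, n = 3 rats). Thinned to 10000 counts, its share of cells was 31.7% ± 7.82 (SD, n = 3 rats), and 25.2%, 40.4% and 29.4% in rats 1, 2 and 3. Rat 1 led before thinning and rat 2 after it. Thinning keeps only 14 of the 23 cells of rat 2, so the cells changed as well as the depth.

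Egr2, known in mouse as a marker of alternatively activated macrophages, was found in 1 of 5, 4 of 23 and 6 of 24 cells (20.8% ± 3.87, SD, n = 3 rats). Its counts were 1 or 2 in 10 of its 11 cells, and 20 (1316 CPM) in cell 27 of rat 2. Summed CPM was 16.8 in rat 1 (interval 2.04 to 60.8), 86.0 in rat 2 (interval 54.5 to 129) and 9.50 in rat 3 (interval 3.48 to 20.7), and rat 2 stood at 11.9 without cell 27. The EGR genes were found together in 7 cells, which is 28.0% of the Egr1 cells and 63.6% of the Egr2 cells, against 6.52 cells from the product of the shares within rat and depth group. In cell 27, where Egr2 was highest, Egr1 had 0 counts. Atf3 was found in 0 of 5, 2 of 23 and 6 of 24 cells, with at most 3 counts, so that its summed level was 7.48 CPM in rat 2 (interval 0.905 to 27.0) and 14.2 in rat 3 (interval 6.51 to 27.0).

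The proximal promoters of Jund, the most widely found JUN gene, and of both EGR genes are shown because these are the most widely found members and the EGR family, and because motif matches were found in these 3 of the 7 windows searched. They are the 250 bases before the transcription start from RefSeq (GRCr8), 5′ to 3′ on the gene's own strand, chr16:18769772-18770021 on the minus strand, chr18:26736828-26737077 on the plus strand and chr20:21054442-21054691 on the minus strand. Capitals mark matches to the cyclic AMP response element TGACGTCA or the EGR site GCGTGGGCG in Jund, and to the CArG box, the serum response factor site, in the EGR genes.
Jund: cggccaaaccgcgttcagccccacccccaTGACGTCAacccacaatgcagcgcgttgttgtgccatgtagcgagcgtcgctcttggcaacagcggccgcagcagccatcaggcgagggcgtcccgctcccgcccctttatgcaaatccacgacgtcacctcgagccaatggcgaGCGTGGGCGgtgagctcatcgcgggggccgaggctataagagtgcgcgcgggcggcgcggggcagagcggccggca
Egr1: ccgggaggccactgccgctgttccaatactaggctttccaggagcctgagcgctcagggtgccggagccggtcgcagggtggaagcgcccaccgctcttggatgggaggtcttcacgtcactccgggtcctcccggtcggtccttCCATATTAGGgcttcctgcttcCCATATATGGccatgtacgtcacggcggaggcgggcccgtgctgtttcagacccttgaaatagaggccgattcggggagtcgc
Egr2: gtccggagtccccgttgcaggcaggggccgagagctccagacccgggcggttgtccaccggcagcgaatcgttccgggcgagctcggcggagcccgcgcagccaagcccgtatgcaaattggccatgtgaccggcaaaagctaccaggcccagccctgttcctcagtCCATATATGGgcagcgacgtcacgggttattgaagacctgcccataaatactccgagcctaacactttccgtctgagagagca
Promoters of 7 of the 10 members were matched by symbol. The cyclic AMP element was searched as an exact palindrome, the EGR site and the AP-1 site TGACTCA on both strands, and the CArG box by its consensus, which reads the same on both strands. No 2 of the motifs share bases in these windows. Egr1 had CArG boxes at -105 to -96 (CCATATTAGG) and -83 to -74 (CCATATATGG) from the start, and Egr2 had the latter letters at the same distance, -83 to -74. Of 33469 promoters of the same length, 1.50% held a CArG box, 1.59% the cyclic AMP element, 0.478% the EGR site and 4.05% the AP-1 site. Windows of Fosb, Fosl1, Fosl2 and Junb held none of the 4 motifs. These matches are of letters only, and no binding was measured.

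A cell held 2.74 ± 0.71 members on average (SD, n = 3 rats), with 2.80 in rat 1, 2.00 in rat 2 and 3.42 in rat 3. No member was found in 5 cells, while 13 cells held 1, 8 held 2, 7 held 3, 8 held 4, 7 held 5, 3 held 6 and 1 (rat 3 cell 38) held 7. As a share of the list this was 27.4% ± 7.10, against 12.6% ± 3.88 for all genes (SD, n = 3 rats), and the members' share was above that of all genes in 46 of 52 cells. A share this high was not particular to the members, since smooth muscle, endothelial and fibroblast markers stood at 27.6%, 25.6% and 24.4%. Macrophage markers stood at 19.7%, and adipocyte, T and NK cell, B cell and neutrophil markers at 17.9%, 13.0%, 10.7% and 7.92%. The number of members moved with depth. Across cells, Spearman's rho between members found and genes found was 0.74 (n = 52 cells), 0.78 within rat 2 (n = 23) and 0.57 within rat 3 (n = 24), as a description of cells that share a library method and differ in depth. The 26 shallower cells (up to 14935 counts) held 1.69 members on average and the 26 deeper cells 3.77. Thinned to 10000 counts, the 40 cells that reach that depth (5, 14 and 21 in rats 1, 2 and 3) held 1.85, 1.78 and 2.23 members in rats 1, 2 and 3, a range narrower than without thinning.

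**Figure D3:**
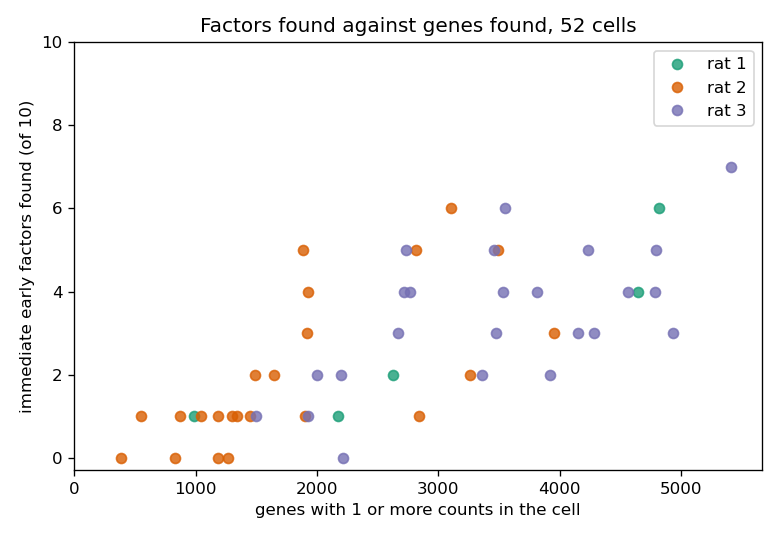
Number of the 10 factors with 1 or more counts (vertical) against the number of genes with 1 or more counts (horizontal) in each cell, coloured by rat. Cells with more genes held more factors in rats 2 and 3 (Spearman's rho 0.78 and 0.57), and the cell with 7 factors had the most genes, 5417.

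Members of the FOS family were found less often than those of the JUN family in each rat, a gap that was smaller without Jund or Fosl2. A cell held 19.9% ± 7.87 of the 4 FOS genes and 37.0% ± 10.3 of the 3 JUN genes, a difference of -17.03 ± 8.21 percentage points (SD, n = 3 rats), negative in rat 1 (-8.33), rat 2 (-18.1) and rat 3 (-24.7). With Jund left out of the JUN family, a choice made after the values were seen, the difference was -3.66 ± 7.53 (SD, n = 3 rats), at 5, -8.70 and -7.29 in rats 1, 2 and 3. With Fosl2, which had no counts, left out of the FOS family, likewise a later choice, it was -10.4 ± 9.06 (SD, n = 3 rats), at 0, -14.5 and -16.7. At 5 or more counts it was -2.61 ± 10.2.

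Co-occurrence was examined next, since FOS proteins act mainly beside a JUN partner. At least 1 FOS gene was found in 29 cells and at least 1 JUN gene in 38 cells, and 24 cells held both, which is 82.8% of the FOS cells and 63.2% of the JUN cells. The product of the 2 shares within each rat gives 22.7 cells, and within the shallower and deeper cells of each rat 23.6, so the families met about as often as their separate shares give. As a share of cells it was 44.3% ± 20.6 (SD, n = 3 rats), against 44.4% ± 23.2 from the product. In 5 cells a FOS gene was found with no JUN count, and in 14 cells a JUN gene with no FOS count. Jund was the only JUN gene in 8 of the 24 cells with both. An EGR gene was found in 29 cells, in 19 of them beside a FOS gene (17.9 from the product within rat and depth group) and in 23 beside a JUN gene (23.3). All 3 families met in 17 cells.

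Between single genes, 36 pairs could be formed from the 9 members with counts. The largest overlap was Jund with Egr1, in 17 cells against 17.2 from the product within rat and depth group. Fosb cells held Jund in 14 of 16 cases (11.4 from the product), Jun cells held Jund in 11 of 12 (8.86), Junb and Atf3 met in 5 cells (2.33) and Fosl1 cells all held Egr1 (6 cells, 4.5). Fosl1 and Atf3 never met, against 0.833 cells from the product. These pairs were named after their values were seen. Others lay below the product, such as Fos with Jund (10 cells against 11.4) and Jund with Egr2 (6 against 7.78). Summed over the 36 pairs, 213 meetings were seen, against 176 from the product within rat and 191 within rat and depth group. The observed number was the higher in 29 pairs by the first product, in 23 by the second, and in 21 with cells thinned to 10000 counts. These products are descriptions and no test was made. The highest Spearman's rho between 2 members over 52 cells was 0.36 (Junb and Atf3), and rho this low in sparse counts is no finding.

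**Figure D4:**
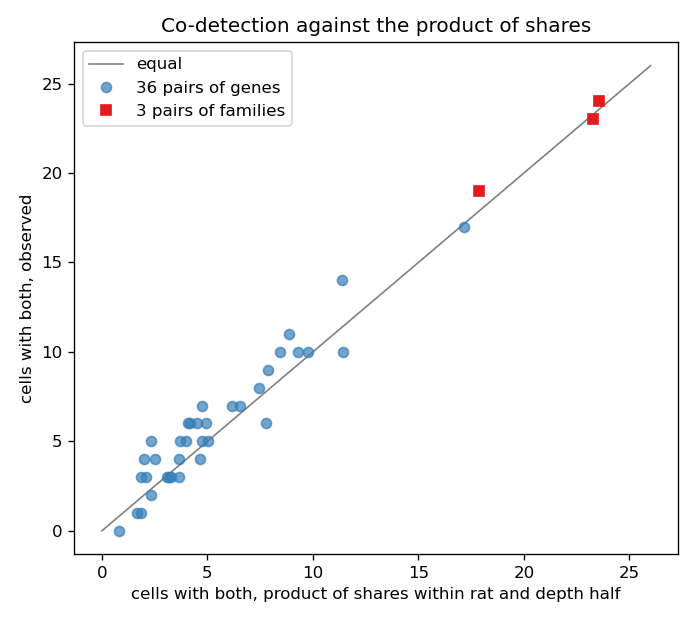
Cells in which both genes of a pair (circles, 36 pairs) or both families (squares, 3 pairs) had 1 or more counts, against the number that the product of the separate shares gives within the shallower and deeper cells of each rat. Points lie near the line of equality, with Jund and Egr1 at 17 against 17.2 and the FOS and JUN families at 24 against 23.6.

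Of the 8 cells with a member at 10 or more counts, 2 held such counts of 2 members and 6 of 1, and the cells are chosen here by those values. In rat 1 cell 4, 37 Fos and 32 Fosl1 counts stood beside 2 Junb, 1 Egr1 and 0 Jun and Jund. That cell also held 517 counts of macrophage markers, among them 236 of Lyz2, and 68 counts of the AP-1 target Hmox1, 67 of Spp1 and 10 of the phosphatase gene Dusp1. Spp1 and Dusp1 were highest in that cell. Hmox1 was highest in rat 2 cell 7, which had 0 counts of Fos and Fosl1 and 1 of Fosb. Whether the members drove these genes was not tested. In rat 1 cell 5, 58 Fosl1 counts stood beside 8 Jund, 2 Egr1, 2 Egr2, 1 Fos and 1 Jun, with 22 counts of the smooth muscle gene Cnn1 and 25 counts of macrophage markers. In rat 3 cell 38, the cell with most genes, 43 Fosb and 17 Jund counts stood beside 131 counts of the smooth muscle actin gene Acta2 and 9 counts of macrophage markers. In rat 3 cell 34, 39 Fosl1 counts stood beside 3 Jund, 3 Egr1 and 1 Junb, with 44 of Lyz2 and 45 of the chaperonin Hspd1.

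The 3 cells with high Junb also held counts of macrophage and vessel wall genes, in part from single markers. Of the 20 macrophage markers, 6 reached 5 or more counts in rat 2 cell 13, and 1 in each of the other cells. C1qc gave 113 of 123 macrophage list counts in rat 2 cell 20, and Tyrobp 18 of 19 in rat 3 cell 45. Myocd gave 173 of 179 smooth muscle list counts in cell 45, and Vwf 20 of 24 endothelial list counts in cell 13. Rat 2 cell 13 had 14 Junb counts beside 15 of Ccn1, 13 of Gadd45b, 9 of Btg2 and 7 of Csrnp1, all immediate early genes, beside 14 of Cd68 and 9 of Csf1r, both macrophage genes, and beside 20 of the endothelial gene Vwf. The other 2 cells were both rich in fibroblast transcripts, with 489 and 581 counts of the fibroblast list against 15 in cell 13. Rat 2 cell 20 had 23 Junb counts beside 398 of Col1a1, 66 of Col3a1 and 113 of C1qc. Rat 3 cell 45 had 32 Junb counts beside 284 of Lum, 197 of Col1a1, 92 of Col3a1, 173 of the smooth muscle gene Myocd and 18 of Tyrobp. Rat 2 cell 27, with 20 Egr2 counts, held 226 of Col3a1, 36 of Tyrobp and 23 of Lyz2. High counts thus lay in cells with and without abundant macrophage markers, and whether vessel wall transcripts account for them was not tested.

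In 4 cells, picked with their values known, 6 or more macrophage markers reached 5 or more counts. Rat 1 cell 4 and rat 2 cell 13 are described above. Rat 3 cell 39, with 1410 macrophage marker counts in 53095, had 5 Jund, 3 Atf3, 2 Jun, 2 Junb and 1 Egr1 count and none of Fos, Fosb or Fosl1. Rat 2 cell 7, with 548 macrophage marker counts in 19309, had 1 count each of Fosb, Jund, Egr1 and Egr2. The cells richest in macrophage markers therefore ran from 4 to 72 member counts, and from 207 to 1990 CPM in sum.

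The 7 pathway lists ranged from 12.8% to 34.2% of their genes per cell, against 27.4% for the members. The lowest was the heat shock list, which holds no AP-1 or EGR genes, and the next was other bZIP factors at 13.2%. Of the other immediate early genes, 37 had a row, and a cell held 23.1% ± 7.19 of them (SD, n = 3 rats), with a median of 10 cells per gene, against 4 over all genes. The most often found were Zfp36l1, an RNA-binding protein that speeds mRNA decay (40 cells, up to 17 counts), the orphan nuclear receptor Nr4a3 (34 cells, up to 11) and the zinc finger factor Klf4 (30 cells, up to 7). By contrast, Socs3, Ier3 and Gadd45a had counts in 1 cell each, genes named after their values were seen. Of the upstream kinases, a cell held 15.0% ± 4.19 of 18, led by the MSK1 gene Rps6ka5 (26 cells), Map2k6 (20) and the RSK2 gene Rps6ka3 (17). Of a list of EGR and serum response regulators, which also holds the AP-2 factor gene Tfap2a, it held 34.2% ± 12.9 of 10. That list was led by the serum response factor partner Elk4 (38 cells, up to 230 counts), Tfap2a (26) and Srf (21). Other bZIP factors, the class of AP-1 relatives and partners, stood at 13.2% ± 5.73 of 21, led by Atf5 (24 cells), Maf (21) and Atf6 (16), and 1 of the 21, Atf4, reached 10 counts in any cell, against 16.3% of all genes.

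A cell held 19.9% ± 6.14 of 20 AP-1 targets (SD, n = 3 rats), led by the angiogenic factor Vegfa (36 cells), the hyaluronan receptor Cd44 (35) and the cell cycle inhibitor Cdkn1a (28). In that list 2 of the 20 genes had no count in any cell, a smaller share than the 16.0% of all genes. Of 13 EGR targets a cell held 28.5% ± 8.58, with the growth factor gene Pdgfa in 42 cells and Vegfa, also in the AP-1 list, in 36. Heat shock genes, which encode chaperones, stood at 12.8% ± 4.11 of 13, close to all genes (12.6% ± 3.88), led by Hsph1 (13 cells), Dnajb1 (12) and Hsp90ab1 (12). In each of the 7 pathway lists the share was lowest in rat 2, as was that of all genes (8.20%).

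**Figure D5:**
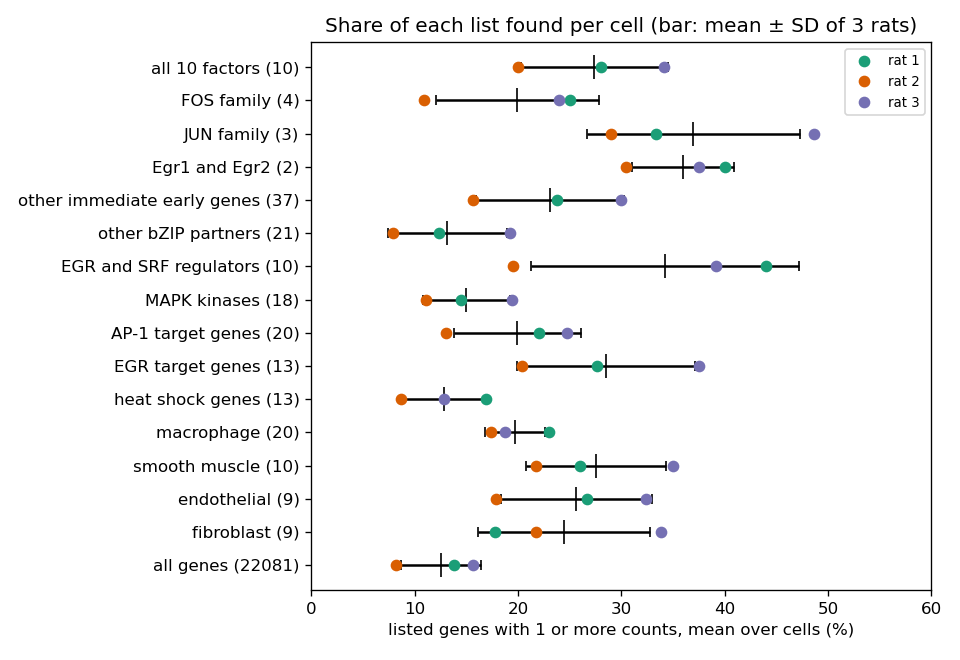
Percent of the measured genes of each list (number in brackets) with 1 or more counts in a cell, averaged over the cells of each rat (points), with the mean and SD of 3 rats as bars. The 10 factors stand at 27.4% and other immediate early genes at 23.1%, against 12.6% for all genes and 12.8% for heat shock genes. Smooth muscle, endothelial and fibroblast markers stand at 27.6%, 25.6% and 24.4%, and macrophage markers at 19.7%. Rat 2 is lowest in each pathway list.

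Genes whose levels followed the 3 most often found members were sought among 4566 genes found in 10 or more cells, by Spearman's rho of log2(CPM + 1) over 52 cells. Jund was followed most closely by Smc5 (rho 0.72, 44 cells), Elmod1 (0.71, 31 cells) and Igfbp5 (0.67, 35 cells), with 0.77 and 0.74 for Smc5 within rats 2 and 3. All 34 Jund cells held Smc5, a subunit of a chromosome maintenance complex. Fos was followed by Ppef2 (0.64), Prdm11 (0.61) and AC099384.2 (0.56), and Egr1 by Wipf1 (0.53), Adra2c (0.52) and Pcnx1 (0.51). None of these 9 genes is in the lists of the pathway. They are the highest of 4566 values each, and they share depth with the members: rho with the number of genes found was 0.46 for Jund, 0.47 for Smc5, 0.34 for Fos and 0.27 for Egr1.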

How the data were processed

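The deposited table holds raw counts, whole numbers for each gene in each cell, with no normalization, as the values show. Libraries were made with the SMART-Seq Single Cell Plus kit from DiI-labelled cells cut singly by laser, per the labels' protocols. Not given in the sources used here are the aligner, counter, genome build, annotation, strand setting and treatment of duplicates, and molecular identifiers are not recorded. RefSeq (GRCr8) places a lncRNA over Fosb and Garin4 over Atf3, so the counts of both are uncertain. The deposited sheet of library indexes was not used.

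Titles gave an aneurysm number and a cell number for every column, and the aneurysm number was read as the rat. A gene was found at 1 or more counts. CPM used the column total, and levels were log2(CPM + 1). Shares and levels are means of 3 rat means. Intervals are exact at 95% and cover counting error only. A count of 0 was taken to allow 3 counts, a smaller bound than the exact interval gives. Thinning to 10000 counts used the exact expected value and left out 12 cells. There being 1 group, no gene-wise test was made, and edgeR and DESeq2 served only for scaling. The named genes are the 10 members, the 3 genes found in the most cells in each pathway list, and the 3 genes most alike in level to each of the 3 most often found members. A gene that this rule names is not reported here. Other genes named in single cells were chosen after their values were seen. The members and lists were chosen with earlier results of these data known. Of the listed genes, 8 had no row and were not analysed here. Functions were tested on simulated counts. Tools were Python 3.11.15, numpy 2.4.6, pandas 2.3.3, scipy 1.17.1, matplotlib 3.10.9, R 4.3.3, edgeR 4.0.16 and DESeq2 1.42.0.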

Additional observations from a re-analysis of the deposited data

Results flagged for a closer look

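Rat 1 had only 5 cells, and in 4 members a lone cell stood far from the other 4 cells of that rat. The highest counts were 37 for Fos (cell 4), 2 for Junb (cell 4), 2 for Egr2 (cell 5) and 1 for Jun (cell 5), and the other 4 cells had 0 or 1 count of Fos and 0 of the others. Chance flags about 1 in 20 groups, and in counts this low a lone detection is enough to do so. For Junb, Egr2 and Jun the distance is 1 or 2 counts.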

How the results depend on the processing

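Members found per cell stood at 1.43 with 2 or more counts required, 0.520 with 5 or more and 1.96 after thinning to 10000 counts, against 2.74. The FOS minus JUN difference had a negative mean in all alternatives tried, at -2.61 points with 5 or more counts, -3.66 without Jund and -10.4 without Fosl2 (both chosen after seeing the data), and -21.4 to -13.2 with each rat left out. Cells with both families fell to 8.06% at 5 or more counts, and were 33.0% to 53.3% with each rat left out, while members per cell were 2.40 to 3.11. Requiring 1000 genes per cell (47 cells) or weighting cells equally moved none of these by more than the SD over rats. Thinning, which also left out 12 cells, moved the share of cells by more than the SD for Junb, Egr1 and Egr2. TMM and DESeq2 scaling moved the level by more than the SD for Egr1 (3.27 and 3.30 against 3.07) and Egr2 (1.34 and 1.35 against 1.24). Both scalings narrowed the range of library size strongly, so they are a limited check of all levels. The cell of 1538 counts was set to 6287 by TMM and 11635 by DESeq2, and the cell of 84848 to 17425 and 18732. Pseudocounts of 0.1 and 10 each moved the level for 9 of 10 members, Jund being the exception. The levels of Egr1 and Egr2 also moved with thinning (2.20 and 0.792) and with the 47 cells of 1000 or more genes (3.39 and 1.42). Depth limits detection, since 74 of 142 detections were of 1 count. No paired analysis was possible because the labels give 1 group.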
